A study of Mus musculus with 2 samples.

Results

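The cells described here are the microglia of a primary culture grown to study ependymal multiciliated cells. They were chosen by the population name that the deposited cell table gives to each cell, and 332 of 16401 cells carry the name Microglia. The culture came from dissected lateral ventricular walls of newborn mouse brains, a tissue whose radial glial progenitors turn into multiciliated ependymal cells when serum is withdrawn. Single cells were profiled in 2 libraries with 10x Genomics 3′ version 3 chemistry, which counts molecules of mRNA by unique molecular identifiers (UMIs). The strain was C57BL/6N for replicate 1 and C57BL/6J for replicate 2, with no other allele named, and the pups were of postnatal day 0 to 2. Both cultures grew for 4 to 5 days to confluence, were shaken at 250 rpm overnight to clear other cell types such as neurons, and were kept for 2 days without serum before trypsin and profiling. Strain, library and culture coincide, so a difference between the libraries cannot be told apart from a difference between the strains. The same holds for anything else that differs between the cultures, such as the sex of the pups. The labels do not say how many animals each culture held.

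Microglia are the resident macrophages of the brain. They arise from yolk sac progenitors, depend on signalling through the receptor Csf1r, and patrol the tissue, take up dying cells and prune synapses. In the undisturbed brain they hold a set of homeostatic genes such as P2ry12, Tmem119 and Cx3cr1 at a high level. In disease models, and in proliferative regions of the early postnatal brain, part of them lower that set and raise genes of lipid handling and lysosomes such as Apoe, Lpl, Spp1 and Trem2. Released inflammatory mediators such as Tnf and the chemokines Ccl3 and Ccl4 mark another kind of activation, which tissue handling alone can also set off.

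Microglia made up 289 of 12028 cells in replicate 1, a share of 2.40% (95% Clopper-Pearson interval 2.14 to 2.69), and 43 of 4373 cells in replicate 2, a share of 0.983% (0.713 to 1.32). Their summed counts were 4292019 UMIs in replicate 1 and 692612 in replicate 2, so values of replicate 2 are the less precise ones. The median cell held 13668 UMIs and 3520 genes in replicate 1, and 17034 UMIs and 3816 genes in replicate 2. The libraries shared 13 cell barcodes, of which 3 belong to a microglial cell in at least 1 library. All levels below are CPM, the UMIs of a gene summed over the cells named and scaled to the same total for every sum, and every interval covers counting error only. Cells of 1 library share a culture, so they are not replicates, and a mean ± SD is over the 2 libraries.

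The cells named Microglia fell into 2 groups on the deposited map of all cells. Most levels below are over all of these cells, and levels without the smaller group are given where glia-poor cells are named. The second map coordinate left a gap of 4.18 units between them, while the next widest gap among these cells was 0.0908. The 223 cells on one side are called glia-poor microglia here and the 109 on the other glia-rich microglia, after what they were found to hold, and this split was made after the data were seen. Glia-rich cells were 103 of 289 in replicate 1 (35.6%, 30.1 to 41.5) and 6 of 43 in replicate 2 (14.0%, 5.30 to 27.9). In replicate 1 the 16 marker genes of microglia summed to 12404 CPM in glia-rich and 30302 CPM in glia-poor cells. Astroglia genes, a list of 15 that includes Slc1a3 and Aqp4, summed to 6491 CPM in glia-rich cells, 955 CPM in glia-poor cells and 10683 CPM in all other cells of replicate 1. In replicate 2 the same list summed to 2666, 1071 and 12347 CPM, but there the glia-rich group was 6 cells. Glia-rich cells thus held both sets of transcripts, each at a level between those of glia-poor microglia and of the rest of the culture.

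**Figure D1:**
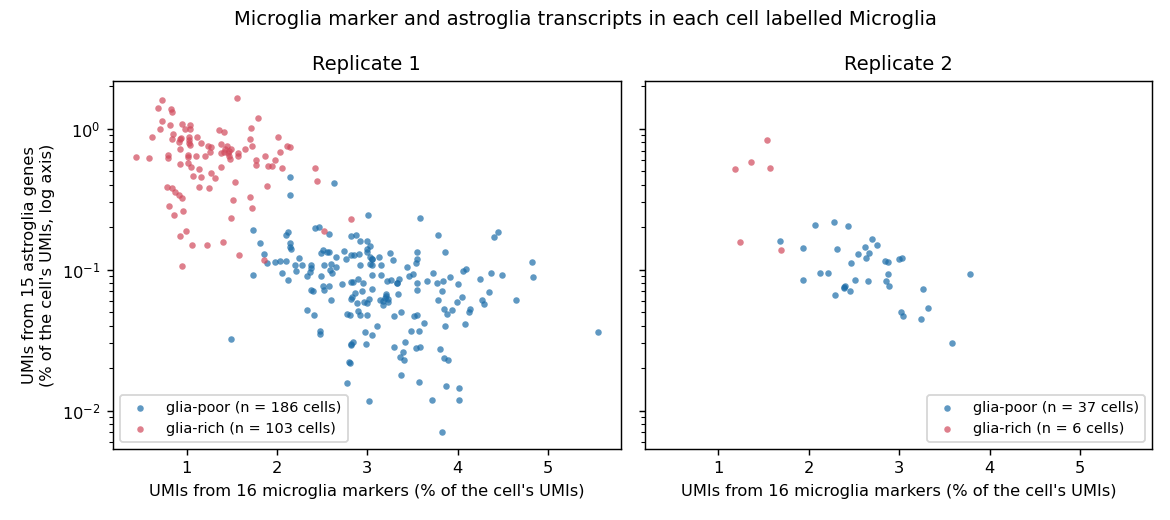
Each point is 1 cell named Microglia, with the share of its UMIs from 16 microglia markers on the x axis and from 15 astroglia genes on the logarithmic y axis, by library and group. Glia-poor cells of replicate 1 had a median of 3.03% marker UMIs and 0.0811% astroglia UMIs, and glia-rich cells 1.23% and 0.645%.

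Motile cilia transcripts were the second set that separated the groups. The list of 63 such genes, which encode axonemal dyneins, radial spokes and other parts of beating cilia, summed to 8665 CPM in glia-rich cells of replicate 1 against 292 CPM in glia-poor cells and 13124 CPM in all other cells. The corresponding sums in replicate 2 were 7341, 93.85 and 9346 CPM. A cell was called cilia-rich when its share of motile cilia UMIs was above 10% of the median share of the cells named as mature multiciliated cells in its library, a limit of 0.231% in replicate 1 and 0.223% in replicate 2. By this limit 76 of 332 microglia were cilia-rich, 70 in replicate 1 and 6 in replicate 2, and all 76 lay in the glia-rich group. The cells nearest to the limit stood at 8.57, 8.96 and 9.05% of the multiciliated median on one side and at 10.2, 10.6 and 11.1% on the other. Moving the limit to 5% of that median gave 99 cells, 5 of them glia-poor, and moving it to 25% gave 59 cells.

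Within replicate 1, 28.2% of 10677 genes were at least 2-fold higher in glia-rich than in glia-poor microglia and 7.0% at least 2-fold lower. Against that background 60 of 60 motile cilia genes with enough UMIs and 13 of 14 astroglia genes were higher, and 15 of 16 microglia markers were lower. The glia-rich cells of replicate 1 also held more RNA, with a median of 19658 UMIs and 5068 genes against 11584 UMIs and 3082 genes. In replicate 2 the order was the opposite, with 3837 UMIs in the 6 glia-rich and 17494 UMIs in the 37 glia-poor cells. The part of droplets that held more than 1 cell in the glia-rich profile was not tested.

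The defining markers were high in both groups of cells. C1qa, C1qb and C1qc, the 3 chains of the complement starter C1q, lie side by side on chromosome 4 of mm10, at chr4:136895917-136898803, chr4:136880129-136886187 and chr4:136889804-136893065, all protein coding and on the minus strand. Laptm5, a lysosomal membrane protein of blood-lineage cells, lies on the plus strand of the same chromosome at chr4:130913125-130936141. C1qa stood at 3791 CPM in replicate 1 (3732 to 3849, exact Poisson) and 4287 CPM in replicate 2 (4134 to 4444), a mean of 4039 ± 351 (SD, n = 2). All other cells together held 2.98 and 0.844 CPM of C1qa. In glia-rich cells C1qa stood at 2092 and 1521 CPM. C1qb stood at 3178 and 3267 CPM, C1qc at 2666 and 3159 CPM, and Laptm5 at 856 and 1363 CPM. For these genes the next highest population never passed 7.63 CPM, the level of C1qa in replicate 1's mid deuterosomal cells. Every microglial cell held at least 32 UMIs from the 16 markers, whereas 16 of 16069 other cells held 10 or more.

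**Figure D2:**
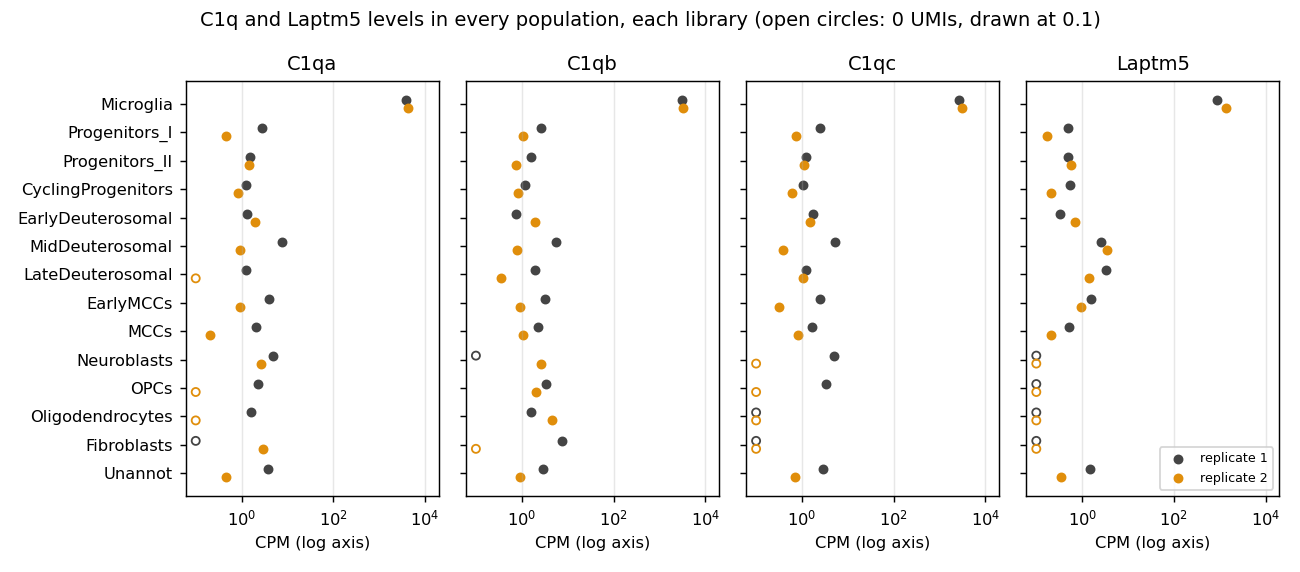
CPM of C1qa, C1qb, C1qc and Laptm5 on a logarithmic x axis in each of the 14 populations, with 1 point per library and open circles for 0 UMIs. Microglia lie between 856 and 4287 CPM, and no other population passes 7.63 CPM.

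Since the markers were high together in these cells and near 0 elsewhere, their promoters were searched for GAGGAAGT, a core sequence bound by PU.1, the product of Spi1 and a master regulator of macrophages. The search covered both strands (reverse ACTTCCTC) from 250 bases before to 50 bases after each RefSeq start on GRCm38.p6, and 13 of the 16 markers were searched. The letters were found in 3 of 14 marker windows, against 3.2% of 32851 windows of the same length. These 3 windows are shown 5′ to 3′ on the strand of the gene, with the motif in capitals. The motif's first base lies at position -195 from the RefSeq start of C1qc, at 6 in Cd53, a leukocyte tetraspanin, and at -2 in Ctss, a lysosomal protease. A match is a description of the letters and does not show that the factor binds there.
C1qc, chr4:136893062-136893149, minus strand: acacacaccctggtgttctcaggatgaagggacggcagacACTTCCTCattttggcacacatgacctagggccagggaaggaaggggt
Cd53, chr3:106790125-106790154, minus strand: cactcagtctcACTTCCTCactcttctcgc
Ctss, chr3:95526773-95526802, plus strand: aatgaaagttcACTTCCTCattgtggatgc

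Microglia were then set against the 12 other populations that had at least 20 cells in each library. Of 15877 genes tested, 1586 were called higher and 914 lower, where a call needs a difference of at least 1 on the log2 scale (2-fold) in the fit and in each library alone. That is a background of 9.99% called higher and 5.76% called lower. A gene could pass the expression filter of the fit through its level in microglia alone. Counts of members called higher therefore lean upward for lists that are scarce in other cells. Among these are the lists of uptake, complement, antigen presentation, niche receptors and macrophage transcription factors. The population names presumably rest on the same counts, so these calls describe the cells and are not tests. Without the glia-rich cells 3066 genes were called lower, while the count of genes called higher stayed within 1.5 times of 1586. The count of lower genes therefore depends on the 109 glia-rich cells.

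The 10 genes with the largest fitted difference were Ptprc, Fcrls, Ctss, Wfdc17, Ccl3, C5ar1, Ms4a7, Cd180, Spi1 and Bcl2a1b. Ptprc, the pan-leukocyte phosphatase CD45, stood at 157.5 and 266 CPM in microglia and at 0.112 and 0.0429 CPM in all other cells. Fcrls, an Fc receptor-like protein used as a microglia marker, stood at 969.7 and 927 CPM against 0.727 and 0.214 CPM. C5ar1, the receptor of the complement fragment C5a, stood at 172 and 283 CPM against 0.148 and 0.0572 CPM. Spi1 itself stood at 383 and 436 CPM against 0.443 and 0.0429 CPM. Bcl2a1b has near-identical copies in the mouse genome, so its 372 and 378 CPM may be shared among them. Among genes called lower with a mean of at least 50 CPM over the other populations, the 10 lowest were Sh3gl3, Tubb4a, Opcml, Gap43, Stmn3, Nsg1, Pcdh7, Dpysl3, Scrg1 and Map1b, most of them genes of neurons and the oligodendrocyte lineage. Map1b, a microtubule-associated protein, stood at 34.02 and 18.8 CPM in microglia against 115 and 219 CPM in all other cells.

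Regulators of macrophage identity were the next group. Of 21 transcription factors 19 were called higher, including Irf8 (246 and 437.5 CPM), Runx1 (100.4 and 124 CPM) and Ikzf1 (47.8 and 98.2 CPM), with a median fitted difference of 6.80 on the log2 scale against 0.07 over all genes. Sall1, which holds microglial identity in the brain, was not called, with 25.4 and 15.9 CPM in microglia and 29.4 and 31.9 CPM in other cells. Sall3 was not called either. Of 14 receptors for colony stimulating factors, TGF-beta and other niche signals 13 were called higher. Csf1r stood at 414.5 and 543 CPM, Tgfbr1 at 157 and 193.5 CPM and Tgfbr2 at 152 and 160.3 CPM. Of 10 tested ligands 3 were called higher in microglia, Tgfb1, Pros1 and Gas6. The call of Gas6 (224 and 259.9 CPM) is against the mean of the populations, since multiciliated cells held 308 and 219.8 CPM and cells without a name 247 and 243.5 CPM. Csf1, a ligand of Csf1r, stood at 65.15 and 100.4 CPM in all other cells, highest in Progenitors_I, against 23.3 and 4.33 CPM in microglia. Il34, the other ligand of Csf1r, stood below 1 CPM in both, and reached 30.5 and 65.4 CPM in the 18 and 22 fibroblasts. Cx3cl1 and Cd200, which bind receptors that restrain microglia, stood at 15.5 and 13.5 CPM and at 73.7 and 75.1 CPM in other cells. Tgfb1 stood at 117 and 152 CPM in microglia against 1.10 and 1.86 CPM.

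Markers of neighbouring blood-lineage cells were checked next, because macrophages at the brain's borders and monocytes share most genes above. Cd163, Lyve1 and Mgl2, which mark border macrophages, had 0 UMIs in both libraries, which allows up to 0.699 and 4.33 CPM. Of 14 genes on the border macrophage list 8 could be tested and 6 were called higher: Ms4a7 (422 and 198 CPM), Clec12a (177 and 175 CPM), Pf4 (119 and 119.8 CPM), Stab1 (166 and 126 CPM), Dab2 (230.4 and 308 CPM) and Mrc1 (17.9 and 5.78 CPM). A gene could pass the filter of the fit through its level in microglia alone, so the tested members lean towards calls of higher. The border macrophage list summed to 1137 and 934 CPM in microglia against 57.0 and 67.5 CPM in other cells. After thinning to 2500 UMIs, Pf4 had a UMI in 49 of 186 (26.3%) and 10 of 37 (27.03%) glia-poor cells, against 0.0426% and 0% of other cells. Mrc1 had one in 11 of 186 (5.91%) and 1 of 37 (2.70%), against 0% of other cells in both libraries. Unthinned, the counts were 116 and 27 cells for Pf4 and 25 and 4 cells for Mrc1. Ms4a7, the member with the highest fitted difference, was more widespread, in 148 of 186 (79.6%) and 22 of 37 (59.5%) glia-poor cells unthinned. Only 0 and 1 glia-poor cells held no UMI of the list. Of 12 monocyte and neutrophil genes 8 had 0 UMIs, among them Ly6c2, S100a9 and Plac8, and Ccr2 had 1.40 and 0 CPM. Of the 2 tested genes Csf3r, the receptor of granulocyte colony stimulating factor, was called higher, a call that the filter favours in the same way. It stood at 12.35 and 15.9 CPM against 0.0236 and 0.0429 CPM. Fn1 (fibronectin) was not called, with 28.4 and 172 CPM against 25.3 and 55.3 CPM. The list summed to 42.4 and 188 CPM in microglia against 25.5 and 55.4 CPM in other cells, with Fn1 the larger part of both. Of the 12 lymphoid and mast cell genes 10 had 0 UMIs.

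The homeostatic set was present at uneven levels. Of 18 homeostatic genes 15 were called higher, with a median fitted difference of 6.47. Cx3cr1, the fractalkine receptor, stood at 551 and 1054 CPM. P2ry12, the ADP receptor of resting microglia, stood at 76.7 and 114 CPM and Tmem119 at 70.4 and 183 CPM. After every cell was thinned to 2500 UMIs, a P2ry12 transcript was seen in 51 of 289 (17.6%) and 8 of 43 cells (18.6%), against 0.102% and 0.0231% of other cells. A Cx3cr1 transcript was seen in 205 of 289 (70.9%) and 36 of 43 cells (83.7%), against 0.162% and 0% of other cells. Siglech and Slc2a5, both used as microglia markers, stood at only 1.40 and 7.22 CPM and at 2.10 and 1.44 CPM. Sparc, Sall1 and Crybb1 were not called. Sparc stood at 1160 and 123 CPM in all microglia but at 70.2 and 50.05 CPM in glia-poor cells, against 3334 and 3161 CPM in other cells, so its level in microglia followed the glia-rich cells.

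Genes of the damage-associated state summed to more CPM than the homeostatic list (12927 and 13830 CPM in microglia). Their list is longer, however, and its median fitted difference was below the 6.47 of the homeostatic genes. The 26 analysed genes of this list of 27, which leave out Clec7a, summed to 59183 and 46872 CPM in microglia. Other cells held 17478 and 12591 CPM, and glia-poor microglia alone 77417 and 48129 CPM. Of 25 tested members 19 were called higher, with a median fitted difference of 5.15. Apoe, a lipid carrier, was the largest single part of the sum, with 33840 and 20193 CPM in microglia and 12728 and 8317 CPM in all other cells together. Among those it ranged from 143 and 125 CPM in oligodendrocytes to 18499 and 11010 CPM in Progenitors_I. Trem2, a receptor on this list, stood at 1147 and 974.6 CPM. Lpl, a lipoprotein lipase, stood at 912 and 1284 CPM, Spp1 (osteopontin) at 964 and 608 CPM, Igf1 at 680.1 and 580.4 CPM and Gpnmb at 62.4 and 25.99 CPM. Itgax, a defining gene of the state in disease models, had 0 UMIs in both libraries, and Cst7, another, stood at 4.43 and 17.3 CPM. Cd9, Cd63, Ctsl, Fabp5, Csf1 and Timp2 were not called. Levels differed from cell to cell: in replicate 1, the 19 of 186 glia-poor cells with the most UMIs of a gene held 71.6% of the Spp1 UMIs and 46.02% of the Lyz2 UMIs, but 25.97% of the Apoe UMIs.

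Phagocytic and lysosomal genes were high nearly as a whole. Of 25 lysosomal genes 21 were called higher, including Ctsd (3608 and 6874 CPM), Ctsb (1690 and 2182 CPM) and Lgmn (1004 and 1500 CPM), and the list summed to 17796 and 25501 CPM against 3247 and 3331 CPM in other cells. Of 22 tested receptors and enzymes of uptake 21 were called higher, a count that the filter favours. The list summed to 7338 and 8202 CPM in microglia against 233 and 264 CPM in other cells. Among its members were the Fc receptor chain Fcer1g (3144 and 3469 CPM) and the NADPH oxidase subunit Cybb (219 and 316 CPM). The apoptotic cell receptor Mertk stood at 23.8 and 34.65 CPM. Tyro3, a relative of Mertk, was not called and Marco had 0 UMIs. Of 19 lipid handling genes 14 were called higher, with Ch25h (86.7 and 160.3 CPM), which makes 25-hydroxycholesterol, and Plin2 (411.5 and 513 CPM), a coat protein of lipid droplets. Of 18 tested complement genes 11 were called higher: microglia held the C1q chains and the receptors C3ar1 and C5ar1, while C3 (7.22 and 1.44 CPM) and C4b (13.3 and 0 CPM) were not called, against 15.25 and 10.3 CPM and 34.4 and 39.96 CPM in other cells.

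**Figure D3:**
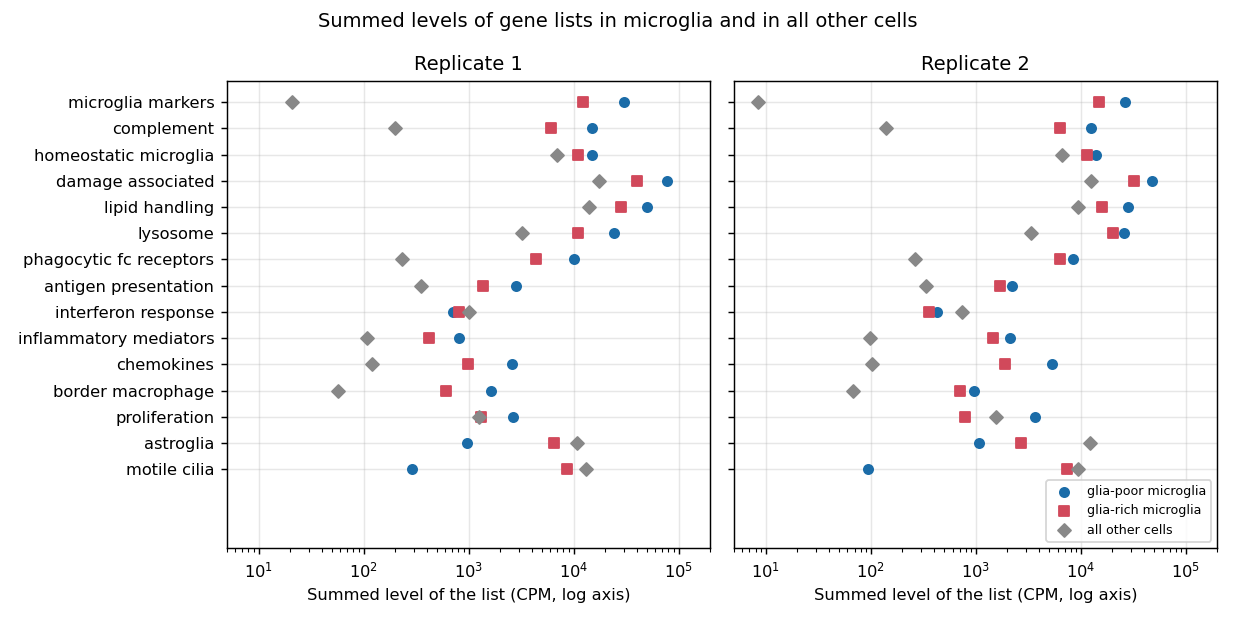
Summed CPM of 15 gene lists on a logarithmic x axis in glia-poor microglia, glia-rich microglia and all other cells, by library. Marker, complement and lysosome sums are highest in glia-poor cells, and the astroglia and motile cilia sums of glia-rich cells lie between those of glia-poor and of other cells.

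Few interferon-stimulated genes were called. Of 19 tested genes 3 were called higher, Ifi27l2a (58.2 and 15.9 CPM), Ifi204 (22.4 and 25.99 CPM) and Bst2 (222 and 169 CPM), beside a background of 9.99% over all genes. The list summed to 757 and 420 CPM in microglia against 1018 and 742 CPM in other cells. Its median fitted difference was 1.24, but set against the pooled other cells the medians were −0.47 in replicate 1 and 0.10 in replicate 2, so the sign differed in replicate 1 only. For antigen presentation 10 of 15 tested genes were called higher, among them B2m (979.7 and 1122 CPM) and H2-D1 (512 and 365 CPM) of the class I pathway. Class II was close to the limit of detection, with H2-Aa and its activator Ciita at 0 UMIs, H2-Ab1 at 1.63 and 8.66 CPM and Cd74 at 8.155 and 10.1 CPM. Oligodendrocytes held more H2-Ab1 than microglia, at 42.4 and 65.7 CPM. Of 12 genes of alternative activation 5 could be tested, and all 5 were called higher: Stab1, Mrc1, Cd36 (30.75 and 41.9 CPM), Tgfb1 and Il4ra (23.1 and 30.3 CPM). The list summed to 355 CPM in each library against 2.56 and 2.83 CPM in other cells. Its genes could thus pass the filter through microglia alone, so the count of calls was largely fixed by the filter. The other 7 genes, Arg1, Chil3 and Retnla among them, had 0 UMIs.

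Several inflammatory mediators and chemokines differed between the libraries. The ratios were taken in glia-poor cells, which hold fewer glial transcripts, and there 4.1% of 8191 genes were at least 2-fold higher in replicate 2 and 4.87% at least 2-fold lower. Of 13 inflammatory mediators 7 were at least 2-fold higher in replicate 2 and 0 lower, with a median log2 ratio of 1.16 in glia-poor microglia and 0.05 in all other cells. Tnf stood at 25.4 and 416 CPM, a ratio of 16.4 (12.3 to 22.3). A Tnf UMI was found in 40 of 186 cells of replicate 1 and 29 of 37 of replicate 2, and after thinning in 7 of 186 (3.76%) and 21 of 37 (56.8%), against 0% of other cells, so the gap was in the share of cells as well as in the sum. Nfkbia, the inhibitor that NF-kappaB induces, stood at 77.0 and 489.6 CPM, and Nfkbiz at 37.6 and 202 CPM. Il1b was at 0.453 and 59.4 CPM, but 94.7% of its UMIs in replicate 2 came from 4 cells. Cd14 (369.9 and 416 CPM), Tlr4 (19.5 and 18.8 CPM) and Tlr7 (78.3 and 76.6 CPM), receptors that sense microbial products, stood close together.

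Of 14 chemokines and their receptors 6 were at least 2-fold higher in glia-poor cells of replicate 2 and 1 lower. Ccl3 stood at 249.5 and 799 CPM and Ccl4 at 592 and 1969 CPM. After thinning, Ccl4 was found in 87 of 186 (46.8%) and 30 of 37 (81.1%) glia-poor cells, against 0.0511% and 0.208% of other cells (unthinned 112 and 35 cells). Ccl2 was found in 19 of 186 (10.2%) and 15 of 37 (40.5%), against 0.256% and 0.346% (unthinned 44 and 22 cells). Cxcl2 stood at 1.36 and 205 CPM and Cxcl10 at 0.453 and 100.1 CPM, the latter with 81.25% of its replicate 2 UMIs in 4 cells. Ccl5 went the other way, at 182 and 6.26 CPM, but its 402 UMIs of replicate 1 came from 9 cells and 235 of them from 1 cell. Microglia of replicate 1 thus held Ccl3 and Ccl4 with little Tnf, Cxcl2 or Il1b.

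**Figure D4:**
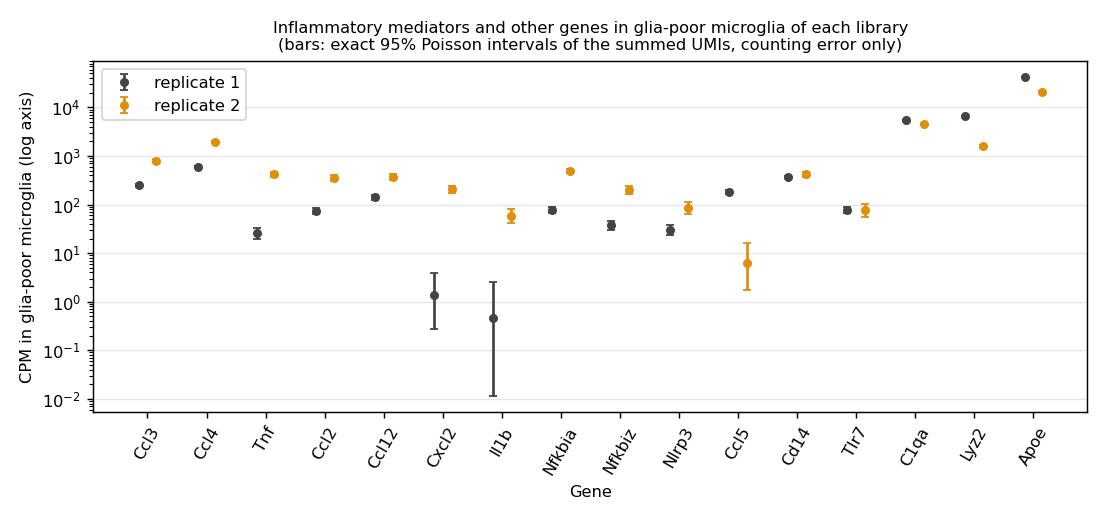
CPM in glia-poor microglia of each library on a logarithmic y axis for 16 genes, with exact 95% Poisson intervals as bars. Tnf (25.4 and 416 CPM) and Cxcl2 (1.36 and 205 CPM) are higher in replicate 2, Ccl5, Lyz2 and Apoe higher in replicate 1, and Tlr7 close in both.

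Some immediate early genes, which trypsin and warm dissociation can induce, were also higher in replicate 2, and their part in the gap was not tested. Of 18 genes on the dissociation list 6 were at least 2-fold higher and 1 lower in glia-poor cells of replicate 2, and the median log2 ratio was 0.60 in these cells and 1.00 in all other cells. Atf3 stood at 64.75 and 288 CPM and Rgs1 at 173 and 724 CPM in glia-poor microglia, whereas Fos stood at 257 and 256.5 CPM there and at 209 and 1027 CPM in other cells. The mitochondrial share also differed, with a median over all microglia of 3.47% in replicate 1 and 5.58% in replicate 2. All other cells differed likewise, with 4.22% and 6.10%.

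Other genes leaned to replicate 1. Lyz2, lysozyme of macrophages, stood at 6668 and 1584 CPM in glia-poor cells, Spp1 at 1543 and 608 CPM and Ms4a7 at 639 and 208 CPM. Apoe stood at 42301 and 21159 CPM and Ifitm3 at 172 and 35.97 CPM in the same cells. Apoe was also higher in replicate 1 in every other population, such as Progenitors_I (18499 and 11010 CPM) and cycling progenitors (8335 and 5010 CPM). Its gap was thus not confined to microglia. Of 25 damage-associated genes 5 were at least 2-fold lower in replicate 2 and 1 higher. Of 18 lipid handling genes 5 were lower and 0 higher, and of 11 interferon genes 5 were lower and 1 higher. The median log2 ratios of these lists were −0.30, −0.42 and −0.92 in glia-poor microglia. In all other cells they were −0.20, −0.19 and −0.37. Of 15 homeostatic genes 1 was higher, while C1qa stood at 5393 and 4517 CPM. Among genes with at least 50 UMIs over all microglia, a limit that Il1b with 2 and 38 UMIs does not reach, the largest ratios towards replicate 2 were those of Xist, Cxcl2, Ccrl2, Tnf and Cd69, and the largest towards replicate 1 were those of Plscr2, Sostdc1, Gabrb1, Hopx and Sparcl1. The latter 5 had 0 UMIs in microglia of replicate 2 and between 1.36 and 3.62 CPM in glia-poor cells of replicate 1, so their ratios follow the glia-rich cells. Xist, the RNA of the inactive X chromosome, had 1 UMI in microglia of replicate 1 and 183 UMIs in those of replicate 2, and the other cells held 0.272 and 269 CPM, so this gap was shared by the whole culture. The sex of the animals may therefore differ between the libraries as well, and its part in the other gaps was not tested.

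Microglia were among the dividing cells of the culture. The deposited cell cycle classes put 123 of 289 microglia of replicate 1 (42.6%, 36.8 to 48.5) and 31 of 43 of replicate 2 (72.1%, 56.3 to 84.7) in S, S/G2 or G2/M, against 66.7% and 64.0% of cycling progenitors. Among glia-poor microglia the shares were 53.2% and 75.7%, and among glia-rich cells of replicate 1 23.3%. Of 26 proliferation genes 18 were called higher than in the mean of the other populations. Mki67, present in dividing cells, stood at 270.3 and 513 CPM in glia-poor microglia, at 536 and 730.5 CPM in cycling progenitors and at 1.18 and 2.41 CPM in Progenitors_I.

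The class G2/M did not carry the transcripts of its name in glia-poor microglia. Among glia-poor cells the 15 genes of G2 and mitosis on the list, such as Mki67, Top2a and Ccnb1, summed to 7266 and 5460 CPM in class S/G2 and to 2405 and 2919 CPM in class S, but to 89.15 and 408 CPM in class G2/M. Class G1 held 134 and 228 CPM of the same genes. Mki67 had 5 UMIs in the 51 G2/M cells of replicate 1 and 3 UMIs in the 11 of replicate 2, against 504 and 165 UMIs in the 34 and 8 S/G2 cells. In cycling progenitors, class G2/M held 2289 and 3010 CPM of these genes, from 17 and 8 cells, also below class S (4148 and 4262 CPM) and class S/G2 (11457 and 12255 CPM) but above class G1 (1487 and 1498 CPM). For these genes the class was thus closer to G1 than to S/G2 in glia-poor microglia of both libraries. In glia-rich microglia class G2/M held 1289 and 571 CPM of them, from 4 and 3 cells. Class G1 held 502 and 211 CPM there, from 6 and 3 cells. Counting S and S/G2 alone, 48 of 186 glia-poor cells of replicate 1 (25.8%, 19.7 to 32.7) and 17 of 37 of replicate 2 (45.9%, 29.5 to 63.1) were in a class that carried proliferation transcripts. A Mki67 UMI was seen after thinning in 42 of 186 (22.6%) and 18 of 37 (48.6%) glia-poor cells, against 4.07% and 6.35% of other cells.

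**Figure D5:**
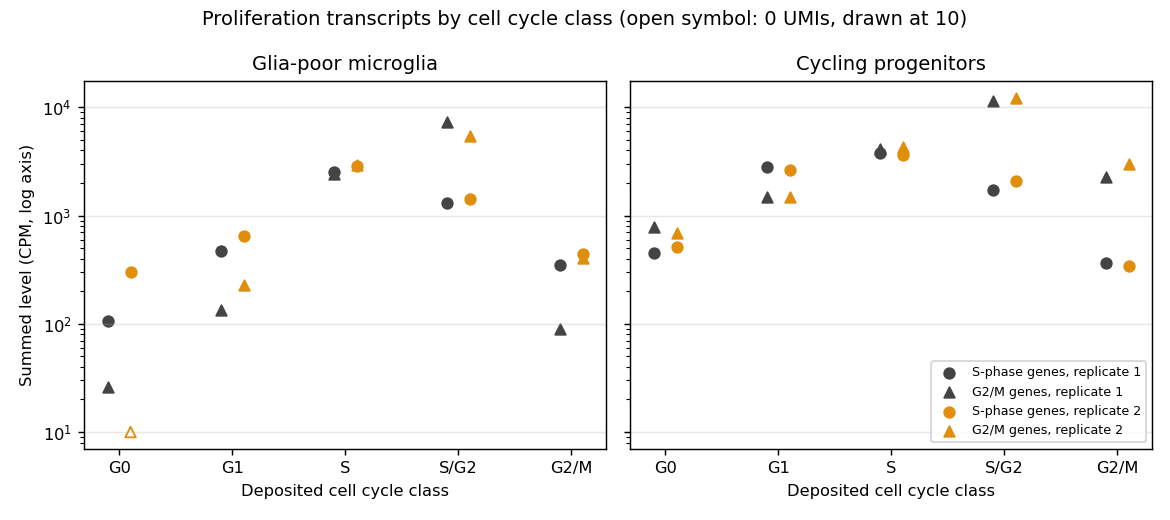
Summed CPM of 11 S-phase genes (circles) and 15 G2/M genes (triangles) on a logarithmic y axis by deposited cell cycle class, in glia-poor microglia and in cycling progenitors, each library in its own colour. G2/M genes of glia-poor microglia peak in class S/G2 (7266 and 5460 CPM) and are low in class G2/M (89.15 and 408 CPM), where cycling progenitors held 2289 and 3010 CPM.

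Damage-associated and lipid genes summed to lower levels in dividing than in resting microglia. The planned test of dividing against resting cells was not run, since replicate 2 had 12 resting cells and 15 were required, so only values are given. In the classes S, S/G2 and G2/M together, the damage-associated list was lower than in G0 and G1 by 0.73 and 0.92 on the log2 scale in glia-poor cells (60326 against 100335 CPM and 39834 against 75577 CPM). With S and S/G2 set against all other classes, a split chosen after the data were seen, the list stood at 37290 against 95337 CPM in replicate 1 and 36986 against 60138 CPM in replicate 2. Lipid handling genes stood at 24783 against 61208 CPM and 20477 against 36606 CPM. Apoe gave most of this, with 19629 against 52425 CPM and 14335 against 28514 CPM, and Igf1 (317 against 1282 CPM and 395 against 689 CPM) and Lyz2 (1687 against 8893 CPM and 1221 against 1976 CPM) had the same order in both libraries. Spp1 did not, at 521 against 2000 CPM in replicate 1 and 642 against 572 CPM in replicate 2. The homeostatic list was nearly level, with 14263 against 15029 CPM and 12942 against 15190 CPM. In replicate 1 the median glia-poor cell held 13219 UMIs in S and 14544 in S/G2 against 10462 in G1, and the part of depth in these values was not tested.

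Glial and ciliary genes in the microglia as a whole followed the glia-rich cells. Of 15 astroglia genes 3 were called lower in microglia and 0 higher, with a median fitted difference of −0.58 that became −5.16 without the glia-rich group. Of 62 tested motile cilia genes 0 were called in either direction. Their fitted median was 0.27, while the pooled medians were −1.57 in replicate 1 and −3.52 in replicate 2, and the fitted median without the glia-rich cells was −3.84. Slc1a3, a glial glutamate transporter, stood at 139 and 7.22 CPM in all microglia, at 2.72 and 4.69 CPM in glia-poor cells and at 466 and 552 CPM in other cells. The level that glia-poor microglia still held, 8.94 and 8.68% of that of other cells for the astroglia list and 2.22 and 1.00% for the motile cilia list, may include free RNA in the droplets, whose part was not tested.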

How the data were processed

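The authors deposited raw UMI counts per gene and cell, with tables that give each cell its library, population name, cell cycle class and map coordinates (a deposited score without unit). Cell Ranger 3 and 5.0.1 and the build mm10 are named per the submitters' processing notes; the steps that filtered, named and classed the cells are not stated there, nor is any handling of doublets, and no doublet caller was run. The file holds 32287 genes. UMIs were summed per library and population. The main comparison was fitted with edgeR 4.0.16 (glmQLFit, TMM, library as a block) on 26 sums with 15877 genes after filterByExpr; only its log2 differences are used. A gene was called when the fitted difference and that of each library alone (log2 CPM, 2 counts added) were at least 1 with the same sign. Fitted values of the 4349 genes with 0 UMIs in some other population depend on the prior count, so CPM are given for single genes. For shares of cells with a UMI, every cell was thinned to 2500 UMIs. Intervals are exact at 95%, and a count of 0 allows 3 counts.

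Named genes were the 4 markers, the 10 largest and smallest fitted differences among called genes (at least 20 UMIs in each library, or a mean of 50 CPM over other populations for lower genes), up to 4 highest and 2 lowest members of each of 26 gene lists with their defining members, and the 5 largest ratios between the libraries each way (at least 50 UMIs). The members and lists were chosen with earlier results of these data known. Clec7a and Mx1 were not analysed here. In simulated counts with known changes on 15311 genes, the fit gave a median log2 of 2.02 for true 4-fold rises and called 93.3% of them, 57.4% of 4-fold falls, 18.8% of 2-fold rises and 0.179% of unchanged genes. Apart from the set changes, each simulated gene had the same mean in every population and a fixed spread. Differences among the other populations and the glia-rich cells were not simulated, so these rates need not hold for the real counts. Python 3.11.15, DESeq2 1.42.0 and scipy 1.17.1 were used for the rest. Alternatives were other scaling, filters, tools, depth, cell sets and call rules.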

Additional observations from a re-analysis of the deposited data

How the results depend on the processing

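Over 23 results, 132 alternative values were computed: 86 stayed within the limits set, 42 moved and 4 changed sign. The 914 genes called lower became 2499, 2846 and 2149 without cilia-rich cells (limits of 10, 5 and 25%), 3066 without glia-rich cells, 514 with cells thinned to 2500 UMIs, 51 with a limit of 2 on the log2 scale and 2434 by edgeR's adjusted p under 0.05. Leaving out a replicate involved no new fit, and used the other library's own differences (log2 CPM, 2 counts added). It gave 3106 to 3732 lower and 1650 to 3632 higher genes, since a call then needs 1 library. List medians with a replicate left out are likewise those of 1 library, so they differ from the fitted medians in measure as well as in cells. The 1586 genes higher became 889 with the limit of 2 and 4149 by edgeR's adjusted p. The median of homeostatic genes (6.47) was 7.84 without unnamed cells, 6.66 without cilia-rich cells, 8.11 thinned, 6.73 without glia-rich cells and 5.63 to 5.85 with a replicate left out. That of damage-associated genes was 4.10 to 4.98 with a replicate left out, and that of inflammatory mediators 7.89 thinned and 3.40 to 4.48. The motile cilia median (0.27) turned to −2.92 without cilia-rich cells and −3.84 without glia-rich cells. The single-library medians with a replicate left out, −2.10 and −0.23, count among the 4 sign changes though their measure differs from the fit. The astroglia median was −5.16 without glia-rich cells and −3.00 to −0.72 in the single libraries. Without the replicate block 1586 genes were higher and 1075 lower, and none of the 5 list medians computed so (homeostatic, damage-associated, inflammatory, motile cilia, astroglia) changed sign; the replicate numbers name the libraries, and whole libraries are the block. With G2/M alone against G0 and G1 the dividing ratio (log2) was 0.19 for proliferation and −0.23 for damage-associated genes, the mean of 0.30 in replicate 1 and −0.76 in replicate 2. Shares of cells with a UMI rose at 5000 UMIs and unthinned to 88.9 and 97.1% for Cx3cr1, 96.8 and 96.5% for Trem2 and 63.2 and 78.2% for Spp1; Trem2 was 90.03% without cilia-rich and 90.6% without glia-rich cells. Log2 ratios between the libraries without cilia-rich and without glia-rich cells were 1.91 and 1.73 for Ccl4, −1.88 and −2.07 for Lyz2, and −0.91 and −0.999 for Apoe; thinned, Ccl4 gave 2.01 and Apoe −0.86. The cause of these shifts was not tested. Removing the glia-rich cells, and counting S and S/G2 alone, were chosen after seeing the data. Alternatives of the test of dividing cells that need the test, and the Ccl5 ratio with thinning (0 UMIs in replicate 2), were not run. Depth limits replicate 2, where 3 counts are 4.33 CPM.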
